A study of Mus musculus with 6 samples.

Results

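The messenger RNAs of the translation initiation and elongation factors were examined in freshly isolated muscle stem cells (MuSCs), the Pax7-expressing cells that sit beside muscle fibres and repair them. Members were the protein-coding genes of the deposited table whose symbol starts with Eif, Eef1 or Eef2, without the Eif4ebp repressors, the Eif2ak kinases and the Y-linked Eif2s3y, and with a mean of at least 5 over the 6 libraries. The rule gave 58 of the 22081 genes in the table, and all 58 passed the filter on low values, which 18562 genes passed. By factor, there were 9 eEF1, 3 eEF2, 5 eIF1, 10 eIF2, 14 eIF3, 12 eIF4, 4 eIF5 and 1 eIF6 genes. The names also take in enzymes that modify a factor and proteins that only share its number, and these are named as such where they are described.

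RNA-seq was made on total RNA of sorted MuSCs of C57BL/6 mice, with 3 libraries labelled control and 3 labelled Taf4asKO. In the Taf4asKO mice both Taf4a alleles were floxed and a tamoxifen-inducible Cre recombinase was expressed from the Pax7 locus, so deletion was limited to cells that express Pax7. The controls, WT in the sample titles and Control in the genotype field, were described by the study as littermates with floxed Taf4a, with or without the Cre allele, and which of these gave the sequenced libraries was not stated. The study names tamoxifen treatment in its entry for the Taf4asKO mice and not in that for the controls. Whether the control libraries came from treated mice was not stated, so treatment may differ together with genotype. The mice were adult, of both sexes, and no label links a library to an animal, so p-values measure only the spread between these libraries, part of which may be technical. TAF4A is a subunit of TFIID, the complex that places RNA polymerase II at promoters, and the comparison asks how mRNA levels differ when it is deleted in MuSCs.

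Translation starts when eIF2 brings the initiator tRNA to the small ribosomal subunit together with eIF1, eIF1A, eIF3 and eIF5, and when eIF4F (the cap-binding eIF4E, the helicase eIF4A and the scaffold eIF4G) recruits the mRNA. After the start codon is found, eIF5B joins the large subunit, eEF1A then delivers each aminoacyl tRNA and is recharged by the eEF1B subunits, and eEF2 moves the ribosome along. Quiescent MuSCs are known for a low rate of protein synthesis, held down in part by phosphorylation of eIF2 alpha. Many mRNAs of elongation factors and of some initiation factors begin with a run of pyrimidines at the cap, the 5 prime terminal oligopyrimidine (TOP) motif, through which mTORC1 and LARP1 control their translation and stability.

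From textbook knowledge, 11 members were listed as TOP mRNAs, namely Eef1a1, Eef1b2, Eef1d, Eef1g, Eef2, Eif2s3x, Eif3e, Eif3f, Eif3h, Eif4a2 and Eif4b. The bases at the annotated RefSeq start (GRCm38.p6) are shown for the 7 of these 11 with an entry and for Eif4g3, the member with the largest higher value. Each window runs from 10 bases before the start to the first 20 transcribed bases, 5′ to 3′ on the gene's own strand, and capitals mark its longest run of pyrimidines.
Eef1a1, chr9:78481705-78481734, minus strand: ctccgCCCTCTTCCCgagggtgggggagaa
Eef1b2, chr1:63176821-63176850, plus strand: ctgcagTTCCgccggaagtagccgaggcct
Eef2, chr10:81176621-81176650, plus strand: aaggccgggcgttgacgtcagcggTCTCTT
Eif2s3x, chrX:94212632-94212661, minus strand: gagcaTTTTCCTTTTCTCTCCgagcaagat
Eif3f, chr7:108934405-108934434, plus strand: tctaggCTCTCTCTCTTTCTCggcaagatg
Eif4a2, chr16:23107458-23107487, plus strand: gaaaCCCCgtaggagcagggcggccgagga
Eif4b, chr15:102073763-102073792, plus strand: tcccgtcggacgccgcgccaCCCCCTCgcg
Eif4g3, chr4:137993445-137993474, plus strand: tccgagcggccgTCCTgccggactgctgga
Runs of 8 or more pyrimidines stood in the windows of Eef1a1, Eif2s3x and Eif3f. Their first bases lay at -5, -5 and -4 counted from the annotated start, so these runs began before it and not at it. In Eef1b2, Eef2, Eif4a2 and Eif4b the longest run within the window was 4 to 7 bases. The run of Eef2 reached the last base of its window, so its full length was not measured. In all the genes shown, the annotated start may differ from the start used in these cells. Over the 45 members with a RefSeq promoter, 7 windows (15.56%) held such a run, against 11.18% of the windows of the 11540 tested genes with a promoter.

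Of the 58 translation factor genes, 14 were lower in the Taf4asKO libraries and 2 were higher. Differences were tested with limma on log2(value + 1), and the threshold was a Benjamini-Hochberg adjusted p below 0.05 together with at least a 1.3-fold change. The 14 lower genes made up 24.1% of the members, where 6.71% of all genes tested were called lower, and the 2 higher genes made up 3.45%, where 5.93% of all genes were called higher. The lower genes were the eEF1 subunit genes Eef1a1, Eef1b2, Eef1d and Eef1g, then Eef2 and its kinase Eef2k, the eIF3 subunit genes Eif3f, Eif3h, Eif3i and Eif3k, and Eif2a, Eif4a1, Eif4e2 and Eif5a. The higher genes were Eif4e3 and Eif4g3, both members of the cap-binding machinery. The median log2 fold change of the 58 members was -0.17, beside 0.004 over all genes tested, and 42 members (72.4%) lay below 0, beside 49.6% of all genes. Without control library 2 the members' median was -0.06 and without control library 3 it was -0.25. In 21 members (36.2%) each Taf4asKO library lay under each control library, which was so for 16.4% of all genes, and in 7 members (12.1%) each lay above, beside 16.6% of all genes.

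All changes were below 2-fold, so at a fold limit of 2 no member was called, where 2.8% of all genes were called lower and 1.78% higher. When same-numbered libraries were taken as pairs, 17 members (background 8.98%) were lower and 3 (background 9.09%) higher, Eif1a, Eif3l and Eef2kmt being added to the lower ones and Eef1akmt2 to the higher ones. Without Taf4asKO library 2, and likewise without Taf4asKO library 3, 7 members were called lower and 1 higher, while the share of all genes called lower was 3.35% and 3.21% in these fits and that called higher 1.84% and 1.97%.

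**Figure D1:**
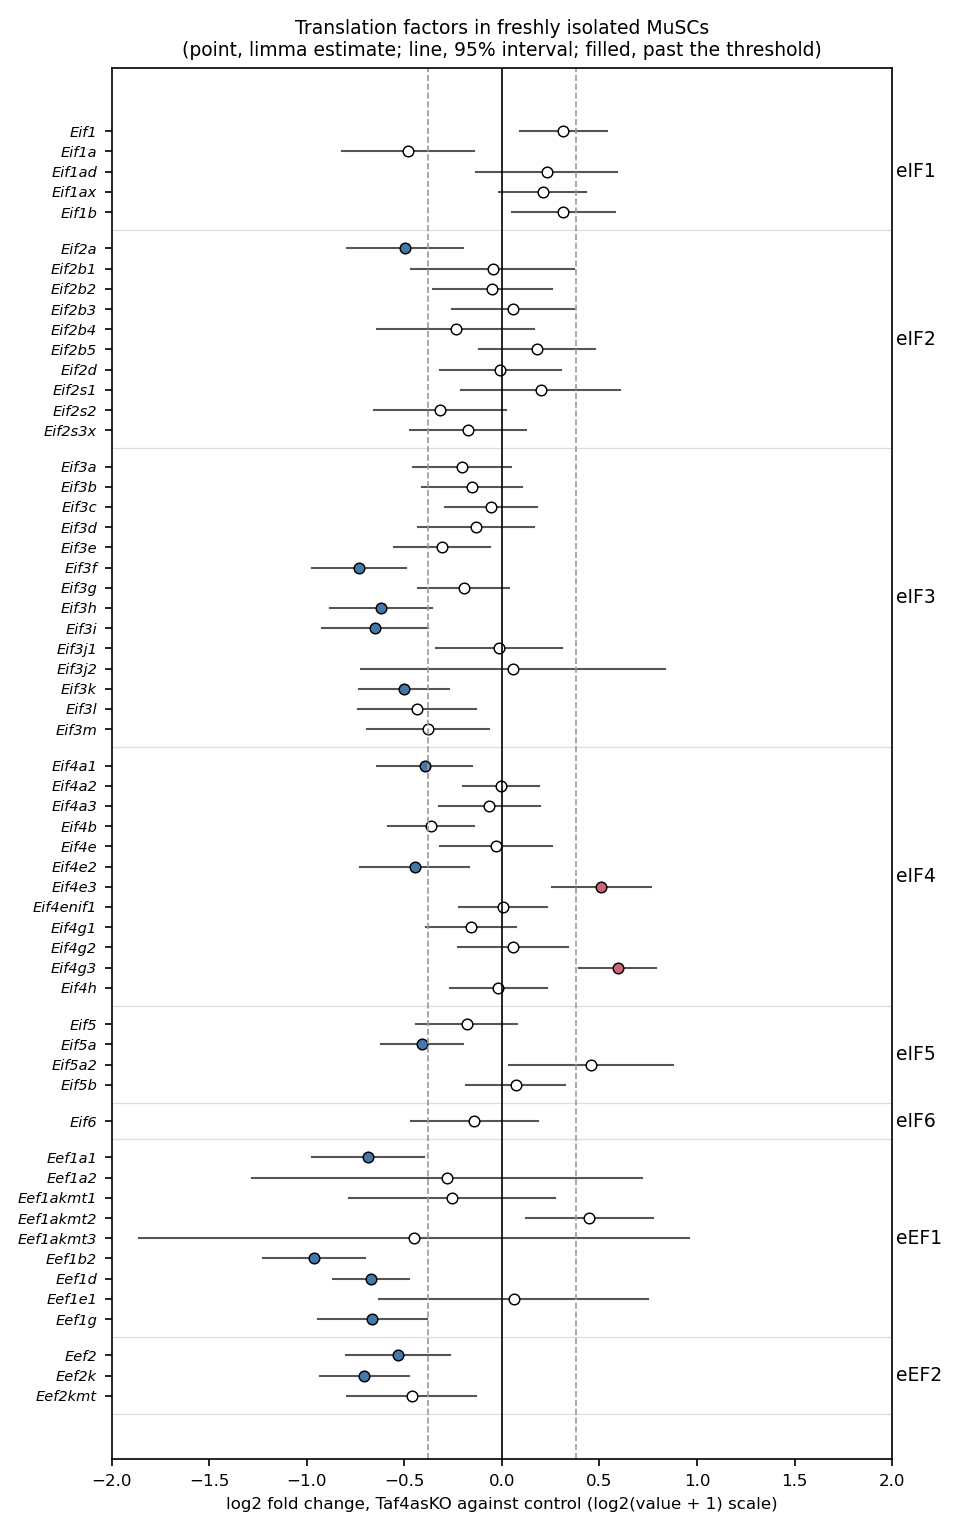
Each point is the limma log2 fold change of Taf4asKO against control for 1 member, the line its 95% interval, and the filled points are the members past the threshold (blue lower, red higher), grouped by factor. The dashed lines mark a 1.3-fold change. The eEF1 subunits, eEF2 and part of eIF3 lie to the left, most eIF2 and eIF2B genes lie near 0, and Eif4e3 and Eif4g3 lie to the right.

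Among the elongation factors, the genes of the eEF1 complex were lower throughout: Eef1a1, which encodes the GTPase that carries aminoacyl tRNA, and the 3 eEF1B subunit genes, 4 of 4 in all. Of all 9 eEF1 names these 4 (44.4%) were lower, where 6.71% of all genes tested were called lower. The Eef1a1 values were 27901, 35065 and 27328 in control libraries 1 to 3 and 20349, 18353 and 17131 in Taf4asKO libraries 1 to 3. The groups did not overlap, and the log2 fold change was -0.69 ± 0.13 (SE; adjusted p in limma = 0.00799). Adjusted p for Eef1a1 ran from 0.000964 to 0.0527 over the alternatives, the call being lost without Taf4asKO library 2 (0.0513) or 3 (0.0527).

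Eef1b2 encodes the subunit that exchanges GDP for GTP on eEF1A, and it had the largest change of all 58 members. Its values were 2874, 3553 and 2759 in the controls and 1711, 1531 and 1454 in the Taf4asKO libraries. The lowest control library therefore stood well above the highest Taf4asKO library, with a log2 fold change of -0.96 ± 0.12 (SE; adjusted p in limma = 0.00104). For Eef1d, the second exchange factor of the complex, the 6 libraries gave 1540, 1573 and 1613 against 1006, 967 and 990. The spread within each group was small, and the log2 fold change was -0.67 ± 0.09 (SE; adjusted p in limma = 0.00135). Eef1g, the gene of the structural subunit that anchors the others, had values of 1861, 2527 and 1956 in the controls and 1418, 1302 and 1252 in the Taf4asKO libraries. Control library 2 was the highest, the groups stayed apart, and the log2 fold change was -0.66 ± 0.12 (SE; adjusted p in limma = 0.00799). The calls of Eef1b2, Eef1d and Eef1g held in each fit that left out 1 library.

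Within a library, the ratio of Eef1b2 to Eef1a1 was 0.103, 0.101 and 0.101 in the controls and 0.0841, 0.0834 and 0.0849 in the Taf4asKO libraries. Eef1b2 was thus lower than Eef1a1 by a further 0.27 on the log2 scale, while the ratio of Eef1g to Eef1a1 spanned 0.0667 to 0.0721 in the controls and 0.0697 to 0.0731 in the Taf4asKO libraries and overlapped. The ratio of Eef1d to Eef1a1 overlapped likewise, with 0.0449 to 0.0590 against 0.0494 to 0.0578. The pairs were picked after their values were seen, so these ratios, and those given further on, are descriptions without a test.

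The other eEF1 names did not pass the threshold in the main fit. Eef1a2, the muscle fibre and neuron form of eEF1A, was low, with 17, 65 and 43 against 23, 41 and 28, and its interval of the log2 fold change (-1.28 to 0.72) was too wide to show a change. Eef1akmt2, a lysine methyltransferase of eEF1A, had 153, 170 and 153 in the controls and 189, 226 and 238 in the Taf4asKO libraries, with no overlap. Its log2 fold change of 0.45 missed the threshold (limma adjusted p = 0.072) and passed it with the libraries paired (0.0491). The log2 fold changes of Eef1akmt1, Eef1akmt3 and Eef1e1, the last of which encodes a component of the tRNA synthetase complex, were -0.26, -0.45 and 0.06, each with an interval that held 0.

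Eef2 encodes the translocase of elongation and, with Eef1a1, was the most abundant member. Control libraries 1 to 3 had 38820, 44931 and 38082, and Taf4asKO libraries 1 to 3 had 30329, 27679 and 26084. Each control stood above each Taf4asKO library, with a log2 fold change of -0.53 ± 0.12 (SE; adjusted p in limma = 0.0179). Its adjusted p ran from 0.00661 to 0.102 over the alternatives, and the call was lost without Taf4asKO library 2 (0.0930) or 3 (0.102) and after adjustment for GC content and exon length (0.0612). Eef2k, the calcium-dependent kinase that phosphorylates eEF2 and slows elongation, was lower as well, with 583, 605 and 624 in the controls and 357, 374 and 378 in the Taf4asKO libraries. The spread within each group was small beside the gap, and the log2 fold change was -0.71 ± 0.10 (SE; adjusted p in limma = 0.00238). The Eef2k call held in each fit that left out 1 library. Eef2kmt, a methyltransferase of eEF2, had 171, 193 and 214 against 135, 135 and 147, a log2 fold change of -0.46 that missed the threshold in the main fit and passed it with the libraries paired (limma adjusted p = 0.0668, paired 0.0465).

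**Figure D2:**
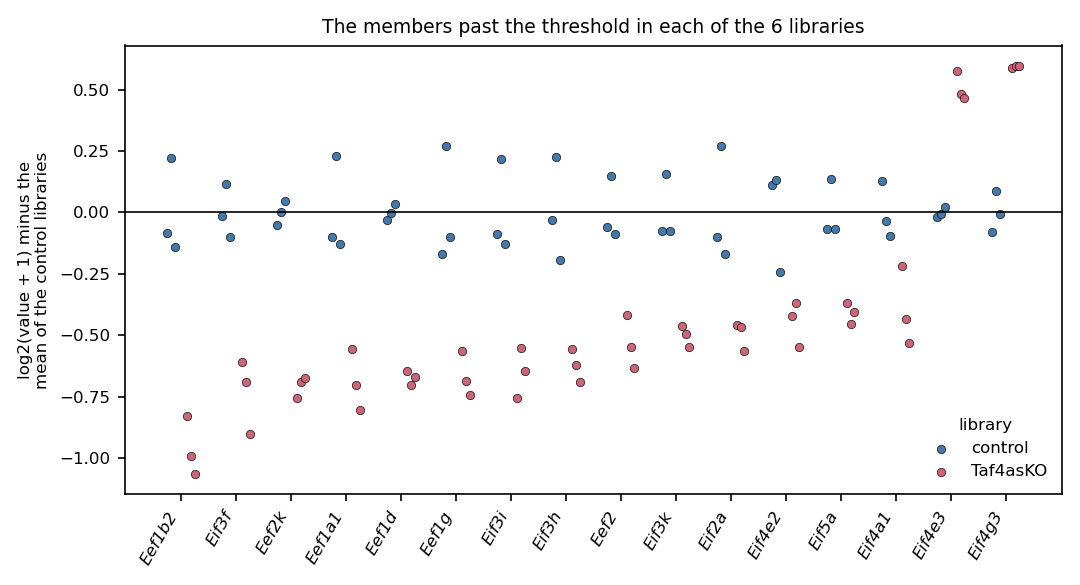
For each of the 16 members past the threshold, the points give log2(value + 1) in the 6 libraries minus the mean of the 3 control libraries. Control points (blue) scatter around 0, the Taf4asKO points (red) of the 14 lower members lie under them, and those of Eif4e3 and Eif4g3 lie above.

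Of the eIF1 group, which holds the scanning factors eIF1 and eIF1A, no gene passed the threshold in the main limma fit (1 of 5 lower and 2 of 5 higher at an unadjusted p under 0.05, a limit that 14.2% and 14.6% of all genes passed in these directions). The form of eIF1A named Eif1a had 745, 670 and 526 in the controls and 516, 469 and 397 in the Taf4asKO libraries. Its log2 fold change was -0.48 ± 0.15 (SE), which missed the threshold without pairing (limma adjusted p = 0.0632) and passed it with pairing (0.00801). The X-linked form Eif1ax lay on the other side, at 882, 860 and 755 against 960, 941 and 981, with a log2 fold change of 0.21 and an interval of -0.01 to 0.43. The ratio of Eif1a to Eif1ax was 0.845, 0.779 and 0.697 in the controls and 0.538, 0.498 and 0.405 in the Taf4asKO libraries, which do not overlap.

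Eif1, the factor that keeps the scanning ribosome open, had 1523, 1469 and 1404 in the controls and 1978, 1858 and 1641 in the Taf4asKO libraries. Each Taf4asKO library stood above each control, but the log2 fold change of 0.31 was under the fold limit (limma adjusted p = 0.0669). Its paralog Eif1b gave 317, 331 and 291 against 421, 375 and 373, a log2 fold change of 0.31 with an adjusted p of 0.109 in limma. Eif1ad, an eIF1A domain protein, had a log2 fold change of 0.23 and an interval of -0.13 to 0.59. The summed values of the eIF1 group were 3175 to 3665 in the controls and 3625 to 4149 in the Taf4asKO libraries, which overlapped, with a ratio of the means of 1.12.

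The genes of eIF2, which delivers the initiator tRNA, and of eIF2B, its guanine nucleotide exchange factor and the target of the integrated stress response, gave no call in limma among 3 and 5 genes, and none had an unadjusted p under 0.05. Eif2s1, the alpha subunit that is phosphorylated under stress, had 444, 646 and 366 in the controls and 530, 516 and 580 in the Taf4asKO libraries. Control library 2 was the highest of the 6 and control library 3 the lowest, and the log2 fold change was 0.20 (interval -0.21 to 0.61). Without control library 2 the Eif2s1 value was 0.42 and passed (limma adjusted p = 0.0406, range over the alternatives 0.0406 to 0.964). The beta subunit gene Eif2s2 had 651, 828 and 577 against 630, 487 and 523, with a log2 fold change of -0.32 (interval -0.66 to 0.02). The groups overlapped in both genes.

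For the gamma subunit gene Eif2s3x, whose window holds the longest pyrimidine run shown, the values were 373, 466 and 357 against 356, 371 and 327, and the log2 fold change was -0.17 (interval -0.47 to 0.12). The 5 eIF2B genes ranged from -0.24 for Eif2b4 to 0.18 for Eif2b5 on the log2 scale. Eif2b5, the catalytic subunit, gave 533, 653 and 469 in the controls and 574, 639 and 648 in the Taf4asKO libraries, which overlapped.

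Eif2a shares the name but encodes a single protein that is no subunit of eIF2 and can itself bring the initiator tRNA. Among the eIF2 names it was the gene that passed, at 522, 675 and 497 in the controls and 407, 405 and 378 in the Taf4asKO libraries, a log2 fold change of -0.50 ± 0.13 (SE; adjusted p in limma = 0.0367). The call was lost when each of 5 libraries in turn was left out, control library 3 being the exception, with adjusted p from 0.00262 to 0.143 over the alternatives. Eif2d, another protein that binds initiator tRNA alone, had a log2 fold change of -0.01 (interval -0.32 to 0.30).

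eIF3 is the initiation factor with the most subunits. Eif3f, Eif3h, Eif3i and Eif3k, 4 of its 14 genes, were lower, 0 were higher (0 also at an unadjusted p under 0.05 in limma), and 13 of 14 lay below 0 with a median of -0.26 on the log2 scale. These are 28.6% lower and 92.9% below 0, where 6.71% of all genes were called lower and 49.6% lay below 0, and in 8 of the 14 (57.1%, beside 16.4% of all genes) the Taf4asKO libraries all lay under the controls. Eif3f, which with Eif3h carries an MPN fold in the core, had 1834, 2010 and 1727 in the controls and 1216, 1149 and 992 in the Taf4asKO libraries. The gap was far larger than the spread, and the log2 fold change was -0.73 ± 0.11 (SE; adjusted p in limma = 0.00267). Eif3h had 1861, 2224 and 1660 against 1294, 1236 and 1178, a log2 fold change of -0.62 ± 0.12 (SE; adjusted p in limma = 0.00806). Eif3i, a WD repeat protein that binds the eIF3b and eIF3g module, gave 752, 928 and 730 in the controls and 473, 544 and 510 in the Taf4asKO libraries. These values stayed apart, with a log2 fold change of -0.65 ± 0.12 (SE; adjusted p in limma = 0.00785). The calls of Eif3f, Eif3h and Eif3i held in each fit without 1 library.

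Eif3k, the small subunit that sits at the edge of the core beside eIF3l, had 985, 1158 and 985 in the controls and 755, 737 and 711 in the Taf4asKO libraries. The groups did not overlap, and the log2 fold change was -0.50 ± 0.10 (SE; adjusted p in limma = 0.0121). Adjusted p ran from 0.00464 to 0.0692 over the alternatives, and the call was lost without Taf4asKO library 2 (0.0644) or 3 (0.0692). Its neighbour Eif3l gave 1447, 1857 and 1272 against 1172, 1117 and 1057, a log2 fold change of -0.43 that missed the threshold in the main fit and passed it with the libraries paired (limma adjusted p = 0.0612, paired 0.0178). Eif3m lay just under the fold limit, at 542, 702 and 555 against 482, 504 and 396, with a log2 fold change of -0.38 (limma adjusted p = 0.107).

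Neither the large scaffold subunits nor Eif3e passed. Eif3a, with 7924, 9526 and 7267 in the controls and 7290, 7133 and 6873 in the Taf4asKO libraries, had a log2 fold change of -0.21 (interval -0.46 to 0.05). Eif3c had 2769, 3170 and 2477 against 2751, 2607 and 2711, which overlapped, with a log2 fold change of -0.05 (interval -0.29 to 0.18). Eif3e gave 1169, 1456 and 1196 against 1080, 998 and 999, a log2 fold change of -0.31 that did not pass (limma adjusted p = 0.0978) although the groups did not overlap.

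The remaining eIF3 genes lay between -0.20 and 0.06 on the log2 scale, namely Eif3b (-0.15) and Eif3g (-0.20) of the module that binds Eif3i, Eif3d (-0.13), which contacts the mRNA, and the loosely bound Eif3j1 (-0.01) and Eif3j2 (0.06), with intervals that all held 0.

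Of the 8 subunits of the eIF3 core (a, c, e, f, h, k, l and m), 3 were lower (37.5%, background 6.71%), 4 with the libraries paired (background 8.98%), and the median log2 fold change was -0.41. Of the 6 genes of subunits b, d, g, i and j, 1 was lower (16.7%) and the median was -0.14. The difference between these sets was not tested. Within a library, the ratio of Eif3f to Eif3c was 0.662, 0.634 and 0.697 in the controls and 0.442, 0.441 and 0.366 in the Taf4asKO libraries. Ratios of Eif3h to Eif3c (0.670 to 0.702 against 0.435 to 0.474), Eif3i to Eif3c (0.272 to 0.295 against 0.172 to 0.209) and Eif3k to Eif3c (0.356 to 0.398 against 0.262 to 0.283) were separate too. In none of these 4 pairs did the groups overlap. The eIF3 sum ran from 22083 to 28581 in the controls and from 19612 to 20989 in the Taf4asKO libraries, a ratio of the means of 0.82.

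**Figure D3:**
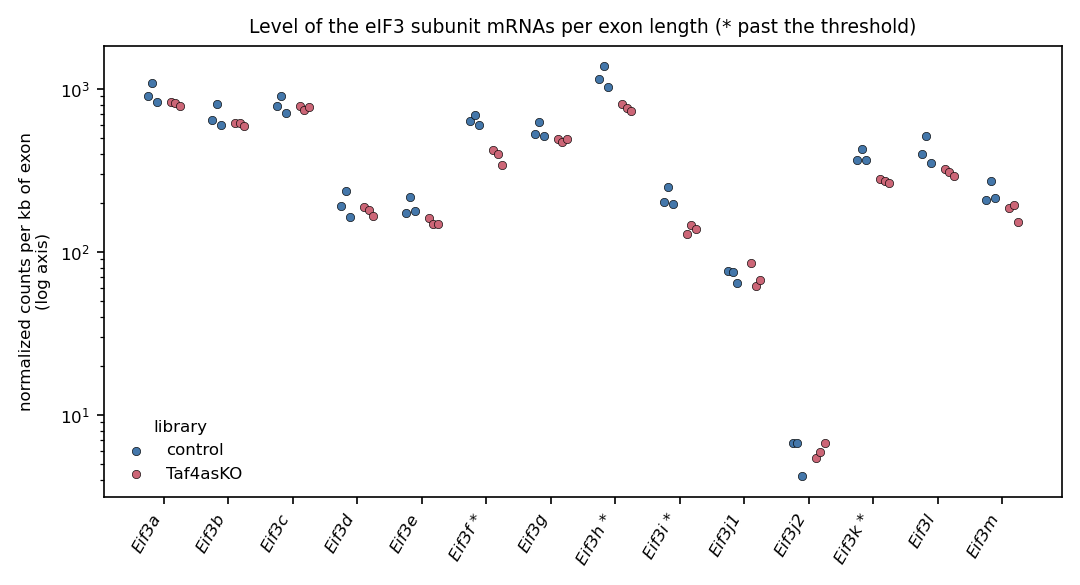
Normalized counts per kb of exon (log axis) of the 14 eIF3 subunit genes, with 3 control (blue) and 3 Taf4asKO (red) libraries each, and an asterisk at the genes past the threshold. In 8 genes the groups do not overlap, namely the 4 past the threshold and Eif3e, Eif3g, Eif3l and Eif3m, while Eif3c overlaps, and Eif3j2 is the lowest of the 14.

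Of the 12 eIF4 names 2 were lower and 2 higher (16.7% each, where 6.71% and 5.93% of all genes tested were called lower and higher). Eif4g3, which encodes the scaffold eIF4GII, was the member with the largest rise. Its values were 4230, 4745 and 4453 in the controls and 6715, 6756 and 6762 in the Taf4asKO libraries. The 3 Taf4asKO values were nearly the same and all above the controls, with a log2 fold change of 0.59 ± 0.09 (SE; adjusted p in limma = 0.00274), and the call held in each fit without 1 library. Eif4g1, the main scaffold, had 5937, 6293 and 5112 against 5445, 4992 and 5034, which overlapped, with a log2 fold change of -0.16 (interval -0.39 to 0.07). The ratio of Eif4g3 to Eif4g1 values, which is not adjusted for length, was 0.712, 0.754 and 0.871 in the controls and 1.23, 1.35 and 1.34 in the Taf4asKO libraries. Per kb of exon, Eif4g3 stayed under Eif4g1, at 404.6 against 791.8 in the controls and 609.6 against 706.3 in the Taf4asKO libraries (means of 3). Eif4g2, whose protein lacks the eIF4E-binding site, gave 9667, 10546 and 8276 against 11213, 9642 and 8756, with a log2 fold change of 0.06 (interval -0.23 to 0.34).

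Eif4e, the canonical cap-binding protein, did not pass. It had 530, 533 and 463 in the controls and 573, 434 and 492 in the Taf4asKO libraries, with a log2 fold change of -0.03 (interval -0.32 to 0.26). Eif4e3, an atypical cap-binding form, rose, with 244, 246 and 251 against 369, 345 and 342. The controls were nearly equal, each Taf4asKO library stood above them, and the log2 fold change was 0.51 ± 0.11 (SE; adjusted p in limma = 0.0175). Eif4e2, known as 4EHP, binds the cap without eIF4G and represses translation, and it fell, with 825, 835 and 644 in the controls and 569, 590 and 521 in the Taf4asKO libraries (log2 fold change -0.45 ± 0.13, SE; limma adjusted p = 0.0432). In neither gene did the groups overlap, and leaving out 1 library moved the log2 fold change to between 0.47 and 0.53 for Eif4e3 and between -0.57 and -0.38 for Eif4e2. The call of Eif4e3 was lost without any single Taf4asKO library (adjusted p of 0.0717, 0.0805 and 0.0751 without libraries 1, 2 and 3, range over the alternatives 0.0118 to 0.0805). The call of Eif4e2 was lost when each of 5 libraries in turn was left out, control library 3 being the exception, and after adjustment for GC content and exon length, with adjusted p from 0.00976 to 0.170 over the alternatives.

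Eif4a1, the main helicase of eIF4F, had 3478, 3107 and 2976 in the controls and 2730, 2351 and 2200 in the Taf4asKO libraries. The groups were apart by a narrow margin, and the log2 fold change was -0.40 ± 0.11 (SE; adjusted p in limma = 0.0404). Adjusted p ran from 0.00335 to 0.176 over the alternatives, and the call was lost without control library 1 (0.120), Taf4asKO library 2 (0.158) or Taf4asKO library 3 (0.176), and with scaling to the total count (0.0837). The paralog Eif4a2 had 3300, 3230 and 3509 against 3408, 3208 and 3390, with a log2 fold change of -0.004 and an interval of -0.20 to 0.19. The ratio of Eif4a1 to Eif4a2 was 1.05, 0.962 and 0.848 in the controls and 0.801, 0.733 and 0.649 in the Taf4asKO libraries. Eif4a3, which acts in the exon junction complex and not in eIF4F, gave 753, 867 and 673 against 755, 736 and 692, and a log2 fold change of -0.06 (interval -0.32 to 0.19).

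Of the helicase cofactors, Eif4b was lower by less than the fold limit. It had 5480, 6384 and 5425 in the controls and 4727, 4402 and 4289 in the Taf4asKO libraries, with a log2 fold change of -0.36 ± 0.10 (SE; adjusted p in limma = 0.0394). Eif4h, which shares this role, had a log2 fold change of -0.02 (interval -0.27 to 0.23), and Eif4enif1, a transporter and binding partner of eIF4E, 0.004 (interval -0.22 to 0.23). The summed eIF4 values ranged from 33922 to 39447 in the controls and from 34731 to 38981 in the Taf4asKO libraries and overlapped, with a ratio of the means of 0.99.

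**Figure D4:**
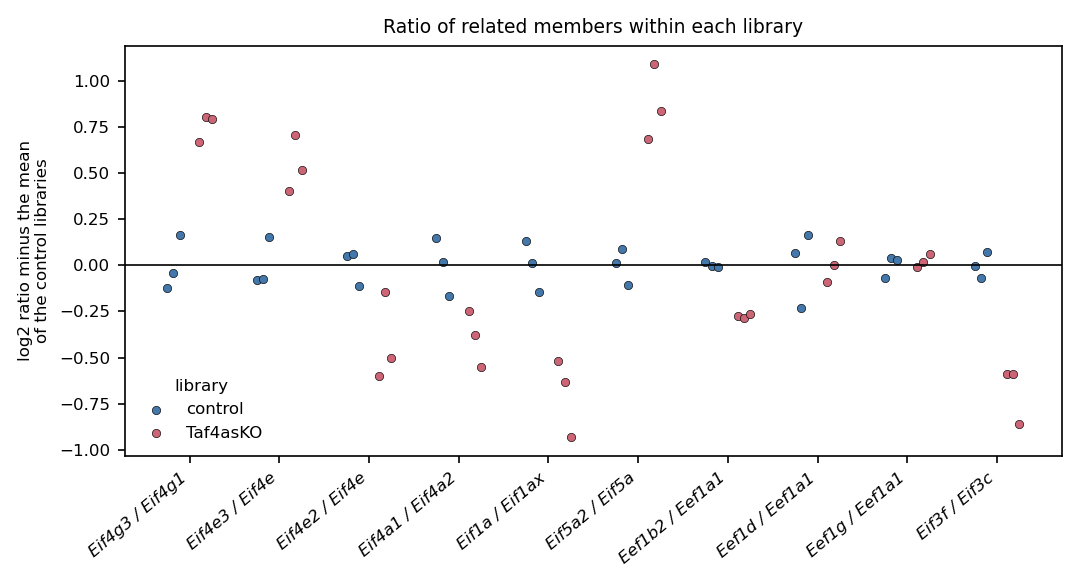
Log2 of the ratio of related members within each library, minus the mean of the 3 control libraries (blue, control; red, Taf4asKO). The ratios of Eif4g3 to Eif4g1, Eif4e3 to Eif4e and Eif5a2 to Eif5a lie above the controls, those of Eif4a1 to Eif4a2, Eif1a to Eif1ax, Eef1b2 to Eef1a1 and Eif3f to Eif3c lie under them, and those of Eef1d and Eef1g to Eef1a1 overlap.

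In the eIF5 group, Eif5a was lower. It encodes the hypusine-carrying protein that helps the ribosome through difficult peptide bonds and so acts in elongation in spite of its name. Its values were 2435, 2805 and 2433 against 1976, 1864 and 1926, and its log2 fold change was -0.41 ± 0.09 (SE; adjusted p in limma = 0.0199). The call was lost without control library 2 (log2 fold change -0.34, under the fold limit) and without Taf4asKO library 1, 2 or 3 (adjusted p 0.0531, 0.107 and 0.0873), and the adjustment for GC content and exon length took the value to -0.31, with adjusted p from 0.00827 to 0.107 over the alternatives. Its rarer paralog Eif5a2 had 75, 91 and 69 in the controls and 97, 121 and 105 in the Taf4asKO libraries, a log2 fold change of 0.46 that did not pass (limma adjusted p = 0.143). The ratio of Eif5a2 to Eif5a was 0.0308, 0.0324 and 0.0284 in the controls and 0.0491, 0.0649 and 0.0545 in the Taf4asKO libraries, without overlap.

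Eif5, the GTPase-activating protein of eIF2, gave 3123, 2960 and 2550 against 2866, 2485 and 2275, with a log2 fold change of -0.18 (interval -0.44 to 0.08). Eif5b, the GTPase of subunit joining, gave 1986, 2238 and 1679 against 2100, 2070 and 1988, with a log2 fold change of 0.07 (interval -0.18 to 0.32). Eif6, which binds the large subunit and keeps it from joining too early, had 439, 493 and 390 against 425, 331 and 447, with a log2 fold change of -0.14 (interval -0.47 to 0.18). In these 3 genes the groups overlapped.

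The 58 genes spanned a wide range of levels. Per kb of exon, the control means were highest for Eef2 (12217.5) and Eef1a1 (12073), which lay close together, followed at a distance by Eif4b (1289.8), Eef1b2 (1209), Eif3h (1188) and Eif5a (1076). The lowest were Eif5a2 (15.6), Eef1akmt3 (6.74) and Eif3j2 (5.88), the last of which shares most of its sequence with other genes, so that leaving out reads with several matches can lower its value. The summed values of all members were 142439 to 173531 in the controls and 115994 to 130742 in the Taf4asKO libraries, which is 1.10 to 1.22% and 0.878 to 1.003% of the library total. Eef1a1 and Eef2 together supplied 44.5 to 46.1% of the members' values in the controls and 37.3 to 38.8% in the Taf4asKO libraries. The sum of the eEF1 genes had a ratio of the means of 0.61 and that of the eEF2 genes 0.69. Across the 58 genes, Spearman's rho of the log2 fold change with the control level per kb was -0.33, and -0.07 across all genes. The control values enter both measures, genes are not independent replicates, and the figures are a description. With GC content rho was -0.14, and with exon length 0.06, beside -0.16 and 0.11 across all genes.

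**Figure D5:**
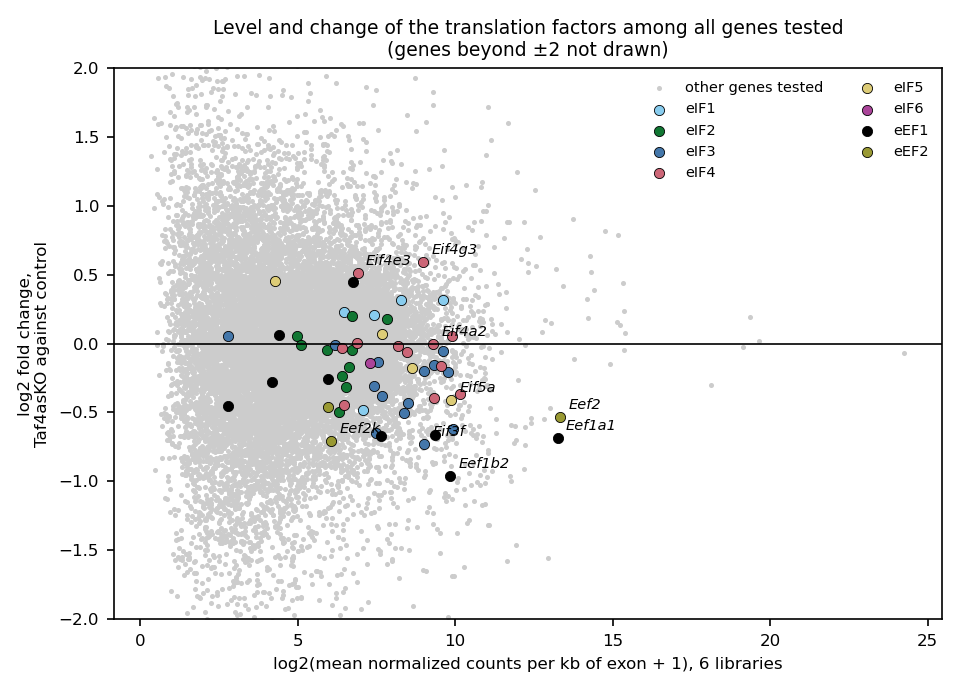
The log2 fold change of Taf4asKO against control is plotted against log2 of the mean normalized counts per kb of exon plus 1, with members coloured by factor and all genes tested in grey. Eef2 and Eef1a1 stand to the right of the other members and below 0, and Eif4g3 and Eif4e3 stand above the other members.

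The listed TOP mRNAs accounted for 7 of the 14 lower genes. Of the 11 on the list, Eef1a1, Eef1b2, Eef1d, Eef1g, Eef2, Eif3f and Eif3h were lower (63.6%, beside 6.71% of all genes), Eif4b, Eif3e, Eif2s3x and Eif4a2 did not pass, and the median log2 fold change was -0.62. Of the other 47 members 7 (14.9%) were lower and 2 (4.26%, beside 5.93% of all genes) higher, with a median of -0.06. The list was drawn up with results of these data known, so the split is a description. Eif2s3x had the longest pyrimidine run of those shown and a log2 fold change of -0.17, while Eef1b2 had a run of 4 bases and the largest fall. The printed starts cannot decide whether run length goes with the change, because annotated starts may differ from those used and the window cut the run of Eef2.

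Promoter sequences of 300 bases (250 before and 50 after the RefSeq start) were searched for the CCAAT box, for the GC box letters GGGCGG and for the TATA box letters TATAAA, on both strands. The CCAAT letters stood in 12 of the 45 members with a promoter (26.67%), beside 38.15% of the tested genes with a promoter, the GC box letters in 33 (73.33%, beside 62.19%) and the TATA box letters in 4 (8.889%, beside 7.192%). Among the 10 lower members with a promoter, the CCAAT letters stood in 3, those of the GC box in 5 and those of the TATA box in 2, the latter being Eef2 and Eif3f. The CCAAT matches nearest to the start among those before it are shown for the 3 lower genes, 5′ to 3′ on the gene's strand (GRCm38.p6), with the motif or its reverse complement in capitals.
Eif3f, chr7:108934353-108934382, plus strand: gtataaatttagCCAATcaaatttctaatt
Eif3k, chr7:28981975-28982004, minus strand: ttttctcacgctATTGGtctcttttaagtg
Eif4a1, chr11:69672449-69672478, minus strand: ctttcaaactacCCAATagggcgtccgaac
The first base of the motif lay at -50 in Eif3f, -104 in Eif3k and -43 in Eif4a1, counted from the start. A match is a string of letters and says nothing of binding.

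Several members share sequence with other genes, and reads that mapped to more than 1 place or overlapped more than 1 gene were left out by the authors, so their values may be too low. Of all 75-base windows of the longest transcript, 41.69% in Eef1a1, 56.54% in Eef1g, 27.68% in Eif4a1, 16.71% in Eif3h, 40.49% in Eif3d, 25.56% in Eif1, 35.71% in Eif2s3x, 50.98% in Eif3j1 and 87.42% in Eif3j2 also occurred in another gene. This was mostly a processed pseudogene, but for Eif3j1 and Eif3j2 chiefly each other and for Eif3d the antisense gene Gm17638 at the same place. In all, 13 members shared over 10%, the rest being Eef2kmt (22.76%), Eif5b (16.61%), Eif1ad (14.26%) and Eif4a3 (13.03%), while 26 of the 58 members shared none. Whether counting used the strand was not stated. Exons on the opposite strand overlap 15 of the 58 members, the longest being those over Eif3d by 2151 bases (Gm17638), Eif5b by 1643 (Rev1), Eif3j1 by 1107 (Spg11), Eef2kmt by 615 (Alg1 and Gm15983) and Eif1ad by 428 (Banf1), and of the members past the threshold Eif2a by 72 (Serp1), Eef1b2 by 9 (Ndufs1) and, over a short stretch, Eef2k (Gm15774). Reads of such a pair cannot be told apart without strand. On the same strand, Eif4e3 shares exon sequence with Gm20696 and Eef1d with Naprt.

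The genes that act on these factors were counted by the same limits. Of 47 listed genes (repressors, kinases and phosphatase subunits, poly(A)-binding proteins, helicases, termination, hypusine and diphthamide enzymes and mitochondrial factors) 2 were lower and 2 higher (4.26% each), where 6.71% and 5.93% of all genes tested were, so these shares were near the background. Larp1, the repressor of TOP mRNAs, was lower with 2800, 2935 and 2497 against 2134, 2002 and 1932 (log2 fold change -0.44; limma adjusted p = 0.0169). Dph3, of the diphthamide pathway that modifies eEF2, was lower with 310, 336 and 307 against 230, 252 and 214 (-0.45; limma adjusted p = 0.0395). The call of Larp1 was lost without Taf4asKO library 2 or 3, with adjusted p from 0.00582 to 0.0915 over the alternatives, and that of Dph3 when each library but control library 2 was left out, with adjusted p from 0.0148 to 0.171.

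Mknk2, a kinase of eIF4E, was higher, with 1601, 1198 and 1872 against 2705, 2393 and 2490 (log2 fold change 0.72; limma adjusted p = 0.0121). Eif2ak2, the RNA-activated eIF2 alpha kinase PKR, was higher with 191, 255 and 255 against 319, 358 and 363 (0.58; limma adjusted p = 0.0297). The call of Mknk2 was lost without Taf4asKO library 1, with adjusted p from 0.000166 to 0.0545 over the alternatives. That of Eif2ak2 was lost without control library 1, without each Taf4asKO library in turn and after adjustment for GC content and exon length, with adjusted p from 0.00835 to 0.128. With the libraries paired, Ppp1r15a, a stress-induced subunit of the eIF2 alpha phosphatase, was also called, at a log2 fold change of 0.43 (limma adjusted p = 0.0950, paired 0.0149). The 3 Eif4ebp repressor genes gave no call in limma and none at an unadjusted p under 0.05, and the 9 mitochondrial translation factors likewise gave none at either limit.

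The 6 libraries summed to 12338676 to 14551732 normalized counts. Correlations of their log2 values spanned 0.961 to 0.984 in the same group and 0.945 to 0.966 across the groups. The count of Taf4, the current symbol of Taf4a, did not separate the labels: it was 613, 534 and 478 in the controls and 631, 565 and 574 in the libraries labelled Taf4asKO (log2 fold change 0.13, interval -0.14 to 0.40). It sums reads over the whole gene, of which the deletion removes a part, so it does not check the labels. By other assays, RT-qPCR and western blot, the paper reported a nearly total loss of Taf4a transcript and protein in Taf4asKO MuSCs. The MuSC markers Pax7, Calcr and Chodl did not pass the threshold, Myf5, Itga7 and Cdh15 were lower, and Vcam1 and Sdc4 were higher. Markers of other cells were present: 4 of 5 Schwann and glial genes were higher (summed values 1178 to 2890 against 3480 to 4266). Of 5 smooth muscle and pericyte genes 2 were higher (9113 to 14153 against 14118 to 16415). Of 7 genes listed as fibro-adipogenic 6 had log2 fold changes above 0 while Cd34 was lower (10656 to 49706 against 30259 to 58252). Cd34 had 868, 836 and 1087 in the controls and 216, 259 and 232 in the Taf4asKO libraries (log2 fold change -1.97, limma adjusted p = 5.8e-05). Which cells its reads came from was not tested. With the libraries paired, 5 fibro-adipogenic, 4 smooth muscle and pericyte and 2 endothelial genes were called higher. The summed values of 5 endothelial genes were 878 to 1263 against 1389 to 1680. Much of this sum came from Tek, with 692, 858 and 752 against 923, 960 and 940. The summed values of 7 muscle fibre genes were 1234 to 3842 against 2193 to 2768. The immune genes Ptprc, Adgre1 and Cd3e were not among the rows, while 3 of 6 had summed values of 157 to 375 against 213 to 231. The part of these cells in the values of the translation factors was not tested, and in such bulk samples fewer cells of a type and less RNA per cell cannot be told apart.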

How the data were processed

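Values were read from the table of normalized counts that the authors deposited for the 6 libraries, treated here as a score because they are whole numbers after DESeq2 scaling and not raw counts. Per the labels and the study's methods, single-end reads of a low-input total RNA kit were trimmed (Trimmomatic 0.39), aligned to mm10 (STAR 2.6.0c), counted per gene (featureCounts 1.6.0) and normalized (DESeq2 1.14.1). Raw depth was not used here, so no counting interval is given.

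Genes with a mean of at least 5 were fitted as log2(value + 1) with limma 3.58.1 in R 4.3.3 (trended empirical Bayes, two-sided, groups only), with Benjamini-Hochberg adjustment over 18562 genes, an adjusted p under 0.05 and a 1.3-fold change (0.38 in log2) as limits. Intervals are 95% intervals. Fold changes of low genes are understated by the pseudocount. The fit was tested on simulated data. The members, the lists and the tests were chosen with earlier results of these data known. Named with values were all members past the threshold, a list of 31 members whatever their values, Taf4, and other translation genes past the threshold. Eif1b, Eif3c, Eif3l, Eif3m, Eef1akmt2, Eef2kmt and Ppp1r15a were added after their values were seen.

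Deviations from the group means of same-numbered libraries correlated at 0.235, 0.126 and 0.150, so the numbers in the titles were taken as pairs in a fit with a replicate block; the labels do not say what a number marks. Exon lengths, GC content and shared 75-base windows came from GENCODE M21 (all 58 identifiers matched), promoters from RefSeq (GRCm38.p6, 45 of 58 members). Alternatives were other scalings, filters, pseudocounts and limits, the block, GC and length adjustment, and leaving out each library. Plots were drawn with matplotlib 3.10.9.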

Additional observations from a re-analysis of the deposited data

How the results depend on the processing

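With the replicate block, 17 translation factors were lower and 3 higher, against 14 and 2 without it, and 3 of the other translation genes were higher against 2. The block with GC and exon length adjustment gave 18 lower and 3 higher factors (8.5% and 9.27% of all genes), and took Eif2s2 and Eif3e past the threshold and Eif5a below it. At an adjusted p under 0.01, 8 factors were lower and 1 higher (2.94% and 1.78% of all genes), and 0 of the other translation genes passed in either direction (3 lower and 8 higher at an unadjusted p under 0.05, or 6.38% and 17.0%, beside 14.2% and 14.6% of all genes). At a fold limit of 2 the counts were 0 and 0 for the factors and 0 and 0 for the other genes. GC and exon length adjustment left 12 lower factors (5.89% of all genes lower) and 1 higher among the other genes. Leaving out 1 library gave 7 to 17 lower and 1 to 4 higher factors (3.21 to 8.11% and 1.84 to 8.71% of all genes), and 0 to 3 lower and 0 to 5 higher other genes. The lowest counts of lower factors (7) came without Taf4asKO library 2 or 3, the highest count of higher factors (4) and of other higher genes (5) without control library 2. Over these fits the members' median ran from -0.25 to -0.06. These were fits with fewer samples, and the cause was not tested.

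Of 719 log2 fold changes recomputed for 40 named genes under 18 settings, 616 kept their direction and side of the threshold, 75 lost the call, 13 gained it and 15 changed sign. No gene past the threshold changed sign. The sign changes were of values near 0, or of Eef1a2, whose counts were low. Adjustment for GC content and exon length gave 0.035 for Eif4a3, -0.057 for Eif4g2 and -0.036 for Eif5b, the same values with the block. Leaving out 1 library gave -0.81 to 0.13 for Eef1a2, -0.15 to 0.031 for Eif4a3, -0.14 to 0.065 for Eif4e, -0.029 to 0.030 for Eif4a2, -0.040 to 0.14 for Eif4g2 and -0.039 to 0.17 for Eif5b. Under the scalings tried, the median of all genes stayed within -0.03 and 0.004, and upper-quartile scaling gave 18 lower factors (7.55% of all genes lower). Raw depth was not analysed here, and 3 libraries a group limit every call.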

Other observations

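Outside the rule on biotype, 4 processed pseudogenes named after translation factors also had rows in the table. Eif4a-ps4, which shares more windows with Eif4a1 than any other gene, had 51, 62 and 52 normalized counts in the controls and 47, 66 and 40 in the Taf4asKO libraries, which overlapped. Eif5al3-ps had 5, 2 and 5 against 1, 1 and 1, Eif3s6-ps1 had 5, 1 and 4 against 3, 5 and 4, and Eif3s6-ps2 had 2, 0 and 5 against 3, 3 and 1.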
